A study of Mus musculus with 8 samples.

Results

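Claudins and the proteins they work with make up tight junctions, and the transcripts of 9 such genes were measured in MAM326 cells, a line of murine mammary cancer, after sorting by fluorescence into GFP-positive and GFP-negative fractions. The genes were the claudins Cldn1, Cldn3, Cldn4, Cldn6 and Cldn7, the tetraspan proteins Ocln and Marveld2, and the scaffolds Tjp1 and Tjp3, chosen by the gene name printed on the array. They were represented by 12 of the 55681 non-control probes. The series comprised 8 one-colour arrays, of which 4 held GFP-positive cells and 4 GFP-negative cells. All came from the same line, grown in DMEM with serum and sorted 2 days after seeding, in 4 experiments at different passages. The sources used here do not give the promoter behind GFP, and they name no allele or drug for either group. The study set out to describe a mammary cancer stem cell population, and GFP-positive against GFP-negative is the comparison its labels define.

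Tight junctions seal the space between neighbouring epithelial cells near their apical edge. Claudins span the membrane and form the paired strands that set which ions and molecules pass. Occludin (Ocln) and tricellulin (Marveld2) are members of the MARVEL family that lie in the same strands, and ZO proteins such as Tjp1 and Tjp3 tie the strands to actin inside the cell. In breast tumours, low expression of Cldn3, Cldn4 and Cldn7 is the feature that gave the claudin-low subtype its name.

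The labels name no cell type beyond the line. All 10 epithelial markers listed as a check, Epcam, Cdh1 and keratins among them, were well above background on all 8 arrays, and so were all 10 mesenchymal markers, such as Vim and Fn1, so presence of these transcripts does not set the cells in either class. Between 25105 and 31965 probes were well above background per array, and 27590 probes that were so on at least 4 arrays were tested. Levels are log2 intensities relative to the array's 75th percentile, so a level of 0 is that percentile. Levels of different probes are not compared. All arrays lay on 1 slide in 2 rows. Row 1 held GFP-positive replicates 1 and 3 and GFP-negative replicates 2 and 4, and row 2 held GFP-positive replicates 2 and 4 and GFP-negative replicates 1 and 3. Slide row, replicate number and experiment therefore cannot be told apart when the rows are compared. Within a row, GFP group and replicate set (1 and 3, or 2 and 4) cannot be told apart either. No label ties an array to its experiment, so p-values measure the spread between these arrays.

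All 5 claudins and both MARVEL proteins averaged higher in GFP-positive cells, by 1.46-fold to 2.24-fold, but none of the 9 genes passed an adjusted p of 0.05. Cldn4, an epithelial claudin, had the largest difference and Tjp1, which encodes ZO-1, the only negative one. Of the 11 member probes tested, 10 had a positive difference and 0 were called in limma, with 4 higher and 0 lower at an unadjusted p below 0.05. Over all 27590 probes, 1.52% were called higher, and an unadjusted p below 0.05 was reached by 7.75% with GFP-positive higher and by 14% with it lower. The median difference of the 9 genes was 0.58 on the log2 scale, against -0.06 for the 19775 genes with a tested probe. The levels of GFP-positive and GFP-negative arrays overlapped for each of the 11 probes, while the groups of 4.89% of all tested probes were apart with GFP-positive higher. With slide row as a block, 0 member probes were again called in limma, with 4 higher at an unadjusted p below 0.05. Of all probes 1.07% were then called higher and 7.13% were higher at an unadjusted p below 0.05.

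The promoters of 4 genes are shown: Cldn4, which had the largest difference, Cldn6 and Cldn7, which differed in 1 slide row, and Tjp1, which varied least. They are RefSeq sequences of GRCm38.p6 that run from 250 bases before to 50 bases from an annotated start site, and RefSeq windows were found for all 9 genes. Cldn4 lies on chr5:134946885-134947184 (minus strand), Cldn6 on chr17:23679115-23679414 (plus), Cldn7 on chr11:69965171-69965470 (plus) and Tjp1 on chr7:65371195-65371494 (minus). Capitals mark the E-box CACCTG or its reverse complement CAGGTG, the letters that the repressors Snai1, Snai2, Zeb1 and Zeb2 are known to bind.
Cldn4: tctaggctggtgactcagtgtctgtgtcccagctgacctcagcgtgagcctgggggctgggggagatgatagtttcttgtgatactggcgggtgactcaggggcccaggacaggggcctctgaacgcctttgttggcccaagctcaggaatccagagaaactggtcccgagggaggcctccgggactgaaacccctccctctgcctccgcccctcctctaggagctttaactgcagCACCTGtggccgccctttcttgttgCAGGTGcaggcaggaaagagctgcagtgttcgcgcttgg
Cldn6: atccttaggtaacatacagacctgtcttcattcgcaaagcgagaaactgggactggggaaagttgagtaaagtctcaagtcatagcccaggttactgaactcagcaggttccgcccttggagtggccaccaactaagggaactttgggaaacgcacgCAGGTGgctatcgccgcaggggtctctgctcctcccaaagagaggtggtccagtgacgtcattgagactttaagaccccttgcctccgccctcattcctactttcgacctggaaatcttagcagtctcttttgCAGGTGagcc
Cldn7: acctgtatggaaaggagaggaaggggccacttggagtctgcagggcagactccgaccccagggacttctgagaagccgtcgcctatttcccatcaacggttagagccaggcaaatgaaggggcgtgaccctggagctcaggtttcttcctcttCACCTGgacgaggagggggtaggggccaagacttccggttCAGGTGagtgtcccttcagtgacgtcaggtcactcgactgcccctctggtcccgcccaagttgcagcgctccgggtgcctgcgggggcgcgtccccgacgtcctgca
Tjp1: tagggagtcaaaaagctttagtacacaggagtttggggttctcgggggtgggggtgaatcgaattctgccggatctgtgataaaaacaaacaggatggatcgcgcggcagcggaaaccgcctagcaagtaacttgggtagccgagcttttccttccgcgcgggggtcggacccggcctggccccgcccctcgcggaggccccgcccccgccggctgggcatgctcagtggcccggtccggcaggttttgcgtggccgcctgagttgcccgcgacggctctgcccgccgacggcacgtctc
With the start site of the printed window counted as 0, the E-box letters began at -14 and 11 in Cldn4 and at -93 and 40 in Cldn6. They began at -97 and -57 in Cldn7, while Tjp1 had none. Cldn7 has a further RefSeq window upstream, chr11:69964529-69964828, which held none either. The printed Cldn7 window lies downstream of it, so its positions are relative to the downstream start site only. Over both strands, 10 of the 13 RefSeq windows of the 9 genes held them, from 7 genes, against 20.2% of 32851 windows of the same length. Cldn1 and Tjp1 were the 2 genes without a match, and the windows of Ocln and those of Marveld2 overlap and share matches. The Grainyhead-like letters AACCNGTT or AACNGGTT, searched on both strands, were in 0 of the 13 windows and in 2.09% of all windows. The letters of the Sp1 GC box, GGGCGG or CCGCCC, were also in 10 of the 13, from 8 genes, and in 35.7% of all windows. These are matches of letters and not measured binding sites.

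**Figure D1:**
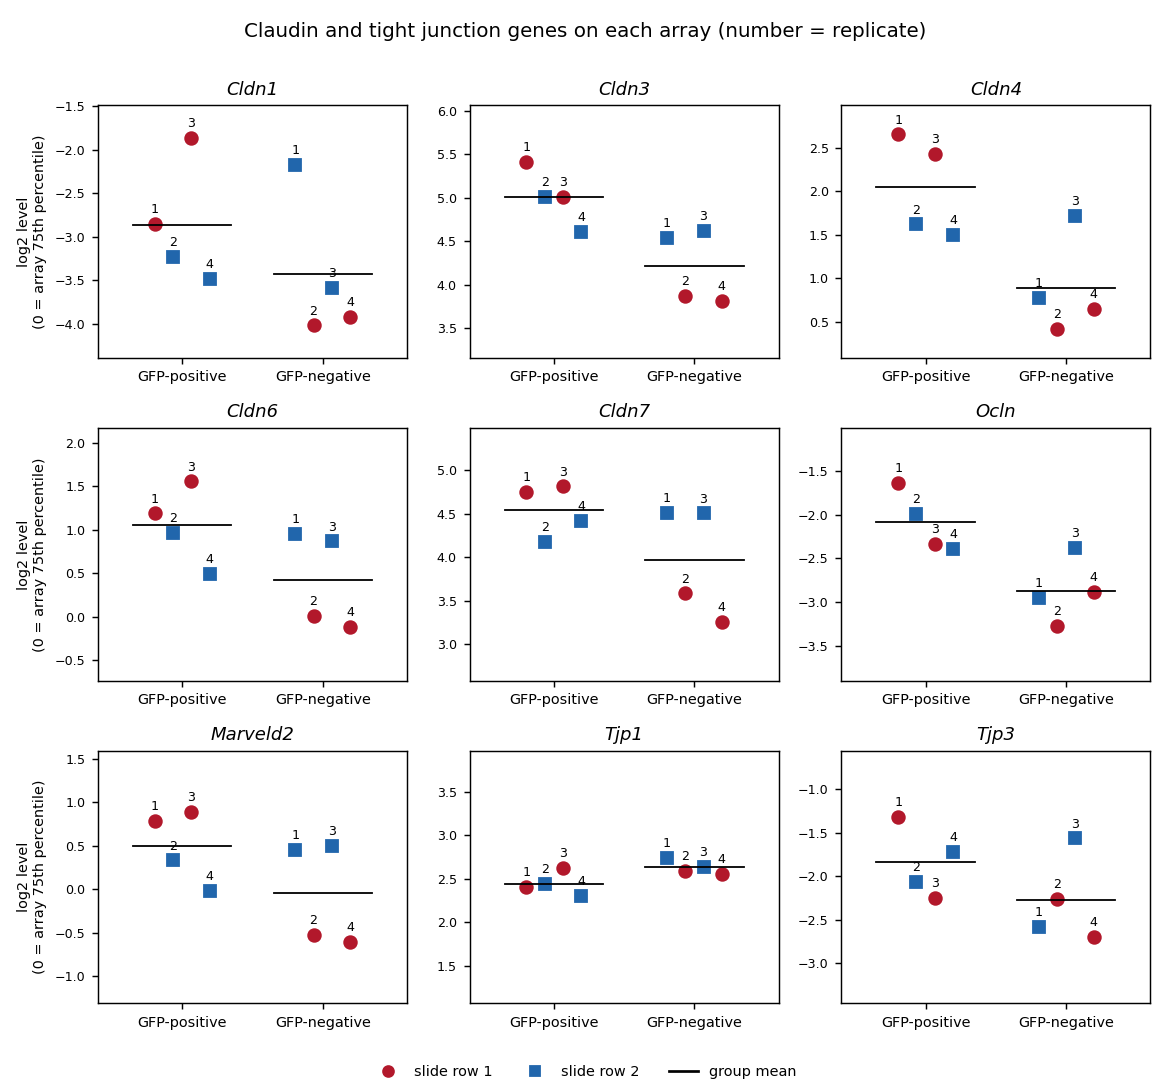
Log2 level of each gene's brightest tested probe on every array (y axis, 0 is the array's 75th percentile, each panel spans the same height), for GFP-positive arrays on the left and GFP-negative arrays on the right, with the replicate number above each point, slide row by colour and shape, and the group mean as a line. GFP-negative replicates 2 and 4 are the lowest arrays for Cldn1, Cldn3, Cldn4, Cldn6, Cldn7 and Marveld2, and Tjp1 is nearly level over the 8 arrays.

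Cldn4, measured on chromosome 5 from 135421347 to 135421406 (mm9), had levels of 2.65, 1.62, 2.43 and 1.50 on GFP-positive arrays 1 to 4, against 0.78, 0.42, 1.71 and 0.65 on GFP-negative arrays 1 to 4. Of the GFP-negative arrays, only replicate 3 reached the GFP-positive range. The difference was 1.16 ± 0.35 (SE), or 2.24-fold, with a 95% interval of 0.34 to 1.98 and an adjusted p of 0.121 in limma. A second Cldn4 probe, from 135422135 to 135422194, had levels of 2.23, 1.30, 2.17 and 0.89 on GFP-positive arrays, against 0.44, 0.13, 1.26 and 0.14 on GFP-negative arrays. Its difference of 1.15 ± 0.37 (adjusted p = 0.133) was close to that of the first probe.

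Cldn3 is the neighbouring protein-coding gene of Cldn4 in the RefSeq table, and claudin-3 is a barrier-forming claudin of many epithelia. Its probe, on chromosome 5 from 135463284 to 135463342 (mm9), had levels of 5.41, 5.02, 5.01 and 4.61 on GFP-positive arrays, against 4.54, 3.88, 4.63 and 3.81 on GFP-negative arrays. The groups met only at GFP-positive replicate 4 and GFP-negative replicate 3. The difference was 0.80 ± 0.24, or 1.74-fold, with a 95% interval of 0.25 to 1.35 (adjusted p = 0.117).

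Cldn7, a claudin found along the lateral membrane as well as in the junction, was measured on chromosome 11 from 69781255 to 69781314 (mm9). Its levels were 4.75, 4.18, 4.82 and 4.42 on GFP-positive arrays, against 4.51, 3.59, 4.51 and 3.26 on GFP-negative arrays. GFP-negative replicates 1 and 3 lay inside the GFP-positive range and replicates 2 and 4 well below it. The difference was 0.58 ± 0.31 with a 95% interval of -0.14 to 1.30 (adjusted p = 0.320), and was 0.34 without GFP-negative replicate 4.

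A second Cldn7 probe was too dim to be tested. It was designed to the Ensembl transcript ENSMUST00000060651 and its bases match the Cldn7 promoter printed above from -151 to -92, so that its last 6 bases are the first E-box. Its levels were -5.65, -5.99, -4.49 and -5.35 on GFP-positive arrays, against -7.01, -6.74, -6.21 and -6.23 on GFP-negative arrays. The groups did not overlap, but the probe was well above background on GFP-positive replicates 1 and 3 only, which are also the 2 arrays where the main Cldn7 probe was highest. The GFP-positive mean of -5.37 lay below the -5.17 that bounds the GFP-negative level, the lowest signals well above background being taken where they exceeded the probe's own, and no fold is given.

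Cldn6 is best known as a claudin of embryonic epithelium, and was measured on chromosome 17 from 23819027 to 23819086 (mm9). It had levels of 1.19, 0.97, 1.56 and 0.50 on GFP-positive arrays, against 0.95, 0.013, 0.87 and -0.12 on GFP-negative arrays. As for Cldn7, GFP-negative replicates 1 and 3 fell among the GFP-positive arrays. The difference was 0.62 ± 0.31 with a 95% interval of -0.10 to 1.35 (adjusted p = 0.289). Cldn9, its neighbour and close paralog, differed by 0.48 ± 0.22 (adjusted p = 0.260), and how far the 2 probes detect each other was not tested.

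Cldn1, a claudin needed for the skin barrier, was the least regular of the claudins. Its probe, on chromosome 16 from 26357372 to 26357431 (mm9), had levels of -2.86, -3.23, -1.86 and -3.49 on GFP-positive arrays, against -2.18, -4.02, -3.59 and -3.92 on GFP-negative arrays. GFP-positive replicate 3 and GFP-negative replicate 1 were its 2 highest arrays. The difference of 0.57 ± 0.48 had a 95% interval of -0.55 to 1.68 (adjusted p = 0.534). Leaving out GFP-positive replicate 3 gave 0.24, GFP-negative replicate 2 0.37 and GFP-negative replicate 1 0.98, and it was 0.24 with normexp background correction.

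Ocln and Marveld2 are neighbouring protein-coding genes on chromosome 13 in the RefSeq table. Ocln, with its probe from 101268529 to 101268588 (mm9), had levels of -1.63, -1.99, -2.33 and -2.39 on GFP-positive arrays, against -2.95, -3.28, -2.38 and -2.88 on GFP-negative arrays. The groups met only at GFP-positive replicate 4 and GFP-negative replicate 3, whose levels were nearly equal. The difference was 0.79 ± 0.23, or 1.72-fold, with a 95% interval of 0.26 to 1.31 (adjusted p = 0.112), the lowest adjusted p among the 11 probes, and was 0.42 with normexp. A second, dimmer Ocln probe, not well above background on GFP-negative replicate 1, differed by 0.69 ± 0.35 (adjusted p = 0.289). Marveld2, with its probe from 101366266 to 101366325, had levels of 0.79, 0.33, 0.89 and -0.013 on GFP-positive arrays, against 0.45, -0.52, 0.50 and -0.60 on GFP-negative arrays. Its difference was 0.54 ± 0.32 with a 95% interval of -0.20 to 1.28 (adjusted p = 0.364), and was 0.36 without GFP-negative replicate 4.

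The scaffolds differed least. Tjp1, with its probe on chromosome 7 from 72441126 to 72441185 (mm9), had levels of 2.40, 2.45, 2.63 and 2.31 on GFP-positive arrays, against 2.74, 2.60, 2.64 and 2.56 on GFP-negative arrays. It was slightly lower in GFP-positive cells, by -0.19 ± 0.09 with a 95% interval of -0.39 to 0.020 (adjusted p = 0.268), or -0.31 with median centring and -0.11 with quantile normalization. Its range over the 8 arrays was 0.43. The other 10 tested member probes had ranges of 1.38 to 2.23, against a median range of 0.62 over all tested probes. Tjp3, which encodes ZO-3, has its probe on chromosome 10 from 80735967 to 80736026. Its levels were -1.32, -2.07, -2.25 and -1.72 on GFP-positive arrays, against -2.59, -2.26, -1.57 and -2.70 on GFP-negative arrays, with a difference of 0.44 ± 0.29 (adjusted p = 0.413). That difference was 0.27 with normexp, 0.27 on dropping GFP-positive replicate 1 and 0.68 on dropping GFP-negative replicate 3. The order of the arrays for Tjp3 was unlike that of the claudins, with GFP-negative replicate 3 second highest.

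Within slide row 1, GFP-positive replicates 1 and 3 were higher than GFP-negative replicates 2 and 4 for 6 of the 11 probes, those of Cldn3, Cldn4, Cldn6, Cldn7 and Marveld2, at an adjusted p below 0.05 in limma. In this row 2.83% of all 27590 probes were called higher. As GFP group and replicate set coincide within a row, these differences cannot be told apart from differences between the replicate sets. Cldn4 was 4.02-fold higher (2.01 ± 0.16, adjusted p = 0.0232) and 4.17-fold by its second probe (adjusted p = 0.0172). Cldn6 was 2.69-fold higher (1.43 ± 0.18, adjusted p = 0.0304) and Marveld2 2.64-fold (1.40 ± 0.13, adjusted p = 0.0242). Cldn3 and Cldn7 were each 2.57-fold higher (adjusted p = 0.0340 and 0.0295). Cldn1 differed by 1.61 ± 0.35 (adjusted p = 0.0847), Ocln by 1.10 ± 0.29 (0.119) and Tjp3 by 0.69 ± 0.36 (0.301), and Tjp1 by -0.06 ± 0.14 (0.813).

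Within slide row 2, GFP-positive replicates 2 and 4 stood against GFP-negative replicates 1 and 3, and 0 member probes were called in limma, with 0 at an unadjusted p below 0.05. Of all probes 0% were called there, although 2989 had an unadjusted p below 0.05. Cldn1 differed by -0.48 ± 0.53, Cldn6 by -0.18 ± 0.20, Cldn7 by -0.21 ± 0.14, Marveld2 by -0.32 ± 0.16 and Tjp1 by -0.31 ± 0.12. Cldn3, Cldn4, Ocln and Tjp3 kept a positive difference, of 0.23 ± 0.18, 0.31 ± 0.36, 0.47 ± 0.27 and 0.18 ± 0.40. The 95% interval for Cldn7 reached up to 0.18 and that for Marveld2 up to 0.15, below their row 1 differences. By replicate set, Cldn7 averaged 4.78 on GFP-positive replicates 1 and 3 against 4.51 on GFP-negative 1 and 3. On replicates 2 and 4 it was 4.30 against 3.42. In the same order Marveld2 averaged 0.84 against 0.47 and 0.16 against -0.56, and Cldn6 1.37 against 0.91 and 0.73 against -0.053. Cldn1 averaged -2.36 against -2.88 and -3.36 against -3.97. Tjp1 was lower in GFP-positive cells in both sets, at 2.515 against 2.688 and 2.376 against 2.576.

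The difference between the rows was tested with an interaction term, which by the layout equals replicates 1 and 3 of both groups against replicates 2 and 4. It was called for Marveld2 (row 1 minus row 2 of 1.71 ± 0.20, adjusted p = 0.0411) and Cldn7 (1.57 ± 0.21, adjusted p = 0.0483), while 0.348% of all probes were called in that direction. For Cldn6 it was 1.61 ± 0.28 (adjusted p = 0.0667), for Cldn4 1.69 ± 0.42 (0.120) and for Cldn3 1.13 ± 0.27 (0.107). It was 0.63 ± 0.45 for Ocln (0.487) and 0.25 ± 0.17 for Tjp1 (0.461). Both calls were lost with median centring and with no filter on dim probes, where 247 and 0 of all probes were called, against 241 in the main fit. They were also lost on leaving out any 1 of the 8 arrays. A row then holds only 1 array of a group, so this loss cannot show whether the calls rest on a single array.

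**Figure D2:**
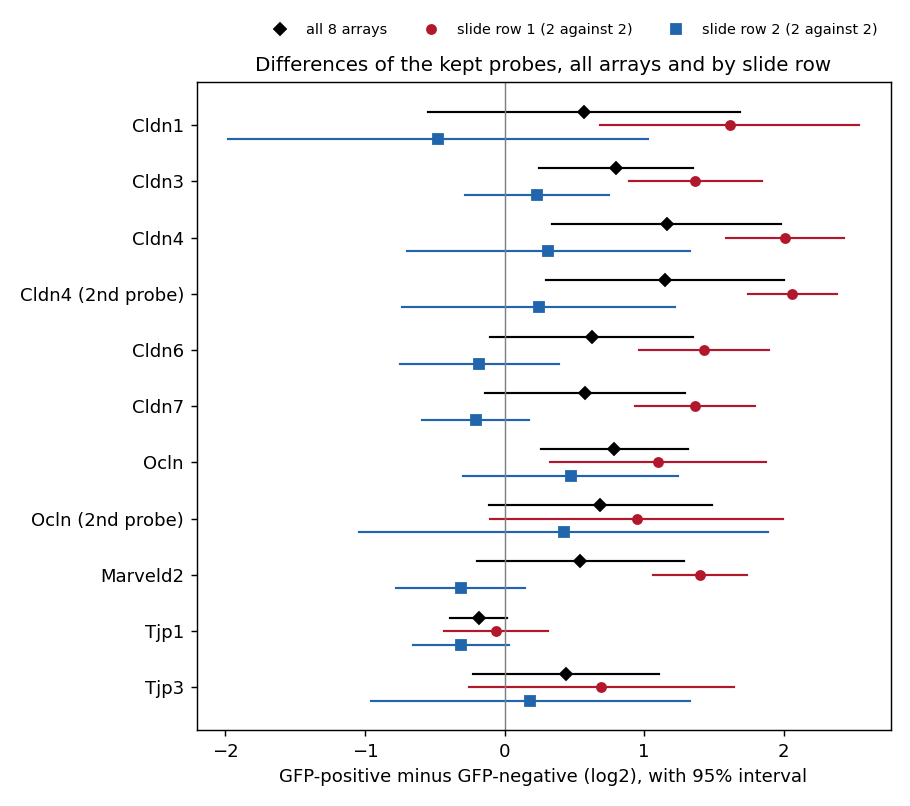
GFP-positive minus GFP-negative difference (log2, x axis) with its 95% interval from limma for the 11 tested probes, over all 8 arrays (diamonds), within slide row 1 (circles) and within slide row 2 (squares). The row 1 differences of Cldn3, Cldn4, Cldn6, Cldn7 and Marveld2 lie between 1.36 and 2.06, and all row 2 intervals cross 0.

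By array, GFP-negative replicates 2 and 4 were the 2 lowest for 6 genes, namely Cldn1, Cldn3, Cldn4, Cldn6, Cldn7 and Marveld2. GFP-positive replicates 1 and 3 were the 2 highest for 4, namely Cldn4, Cldn6, Cldn7 and Marveld2. Averaged over the 5 claudins, the levels were 2.23, 1.71, 2.39 and 1.51 on GFP-positive arrays, against 1.72, 0.77, 1.62 and 0.74 on GFP-negative arrays. Both row 1 pairs thus lay at the ends of the scale and the 4 arrays of row 2 close together between them.

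Markers of other cell states moved over the same arrays. The mean level of the 10 epithelial markers was 3.20, 2.92, 3.35 and 2.57 on GFP-positive arrays, against 2.95, 2.10, 2.87 and 2.08 on GFP-negative arrays. That of 10 mesenchymal markers, such as Vim, Zeb1 and Twist1, was 3.66, 4.16, 3.00 and 4.39 on GFP-positive arrays, against 3.72, 4.73, 4.30 and 4.74 on GFP-negative arrays. Of 8 fibroblast markers 6 were tested (Col1a1, which is also on the mesenchymal list, Col1a2, Col3a1, Pdgfra, Pdgfrb and Dcn), while Lum and Fap were not well above background on any array. Their mean was -0.14, 0.79, -1.74 and 1.50 on GFP-positive arrays, against 0.042, 2.90, 1.89 and 2.18 on GFP-negative arrays. The array with the highest claudin mean, GFP-positive replicate 3, had the lowest fibroblast mean, and GFP-negative replicates 2 and 4 had the 2 highest.

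Over all arrays 0 of the epithelial, mesenchymal and fibroblast markers were called in limma. At an unadjusted p below 0.05, 2 of 10 epithelial markers were higher, against 7.75% of all probes. At that p 2 of 10 mesenchymal and 1 of 6 fibroblast markers were lower, against 14% of all probes. Within slide row 1, 9 of 10 epithelial markers were called higher in limma, against 2.83% of all probes. Called lower within row 1 were 2 mesenchymal markers and 1 fibroblast marker, against 1.8%. Within slide row 2, 0 markers of these 3 lists were called in limma. Differences there were positive for 2 of 10 epithelial markers (median -0.24), 8 of 10 mesenchymal markers (0.21) and 5 of 6 fibroblast markers (0.41). Of all 27590 probes, 11041 were positive in row 2 (median -0.06). The row interaction was called for 6 of 10 epithelial markers, all larger in row 1, against 0.348% of all probes. It was called for 1 fibroblast marker in the other direction, against 145 of 27590 probes. The part of these markers in the claudin differences was not tested. In RNA of sorted populations, fewer cells of a type and less RNA per cell cannot be told apart. Of 12 leukocyte marker names 5 were tested and of 8 endothelial markers 2, while the defining leukocyte genes Ptprc and Adgre1 were well above background on at most 1 array and the endothelial genes Cdh5, Tek and Tie1 on none. The mean of the 5 leukocyte markers ran from 1.65 to 1.84 on GFP-positive arrays and from 1.21 to 1.52 on GFP-negative arrays. Of the 5, Cd68, a lysosomal protein abundant in macrophages, passed the threshold, with levels of 0.78 to 1.09 on GFP-positive arrays against -0.18 to 0.15 on GFP-negative arrays (adjusted p = 0.00514, and 0.401 within slide row 2 alone). The groups were also apart for Cd14, a receptor for bacterial lipopolysaccharide on myeloid cells, with levels of 2.13 to 2.42 on GFP-positive arrays against 1.47 to 1.85 on GFP-negative arrays (adjusted p = 0.0564). Csf1r, Itgam and Cd3e, the rest of the 5, differed by 0.29, 0.026 and -0.076 (adjusted p = 0.681, 0.917 and 0.825 in limma). The mean of the 2 endothelial markers ran from -0.99 to -0.66 on GFP-positive arrays and from -1.01 to -0.61 on GFP-negative arrays. Of 5 adipocyte markers only Fabp4 was tested, and it differed by -0.012.

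**Figure D3:**
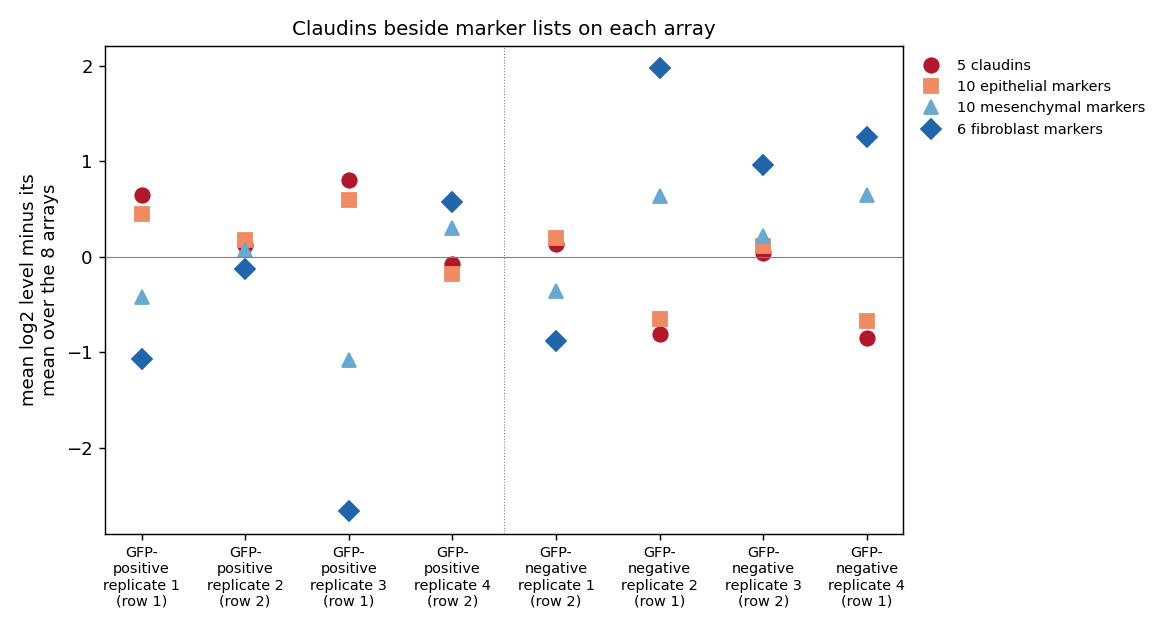
Mean log2 level of the 5 claudins and of the epithelial, mesenchymal and fibroblast marker lists on each array, each minus its own mean over the 8 arrays (y axis), with GFP-positive arrays left of GFP-negative arrays and the slide row under each. The claudins and epithelial markers are lowest on GFP-negative replicates 2 and 4, where the fibroblast mean is highest, and the fibroblast mean is lowest on GFP-positive replicate 3.

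Other genes of the tight junction, its polarity complexes and its regulators showed a smaller shift. Of 54 such genes, all on the array, 39 were tested, and 0 were called in limma, with 7 higher and 2 lower in GFP-positive cells at an unadjusted p below 0.05 and a median difference of 0.19. The shares over all probes at that p were 7.75% higher and 14% lower. Of 18 further claudins only Cldn9, Cldn12, Cldn15 and Cldn23 were tested, and 8 were not well above background on any array. Cldn9 (0.48) and Cldn23 (0.31 ± 0.29) were higher in GFP-positive cells and Cldn12 (-0.029 ± 0.083) and Cldn15 (-0.39 ± 0.33) lower. Their adjusted p values in limma were 0.260, 0.582, 0.875 and 0.531. Among the 39 genes, the 4 largest differences were those of Ildr1, Crb3, Jam3 and Marveld3. Crb3, a Crumbs polarity protein of the apical membrane, had levels of -0.09, -0.50, -0.20 and -0.56 on GFP-positive arrays, against -0.58, -1.65, -0.94 and -1.73 on GFP-negative arrays. The groups did not overlap, and the difference was 0.89 ± 0.27 (adjusted p = 0.117). Ildr1, an angulin of tricellular junctions, differed by 0.98 ± 0.32 (adjusted p = 0.141), but by 0.33 with normexp. Marveld3, the remaining MARVEL protein of the junction, differed by 0.79 ± 0.21 (adjusted p = 0.0921). Jam3, a junctional adhesion molecule also made outside epithelium, went the other way, by -0.82 ± 0.40 (adjusted p = 0.273), or -0.54 without GFP-positive replicate 3. Within slide row 1, 9 of the 39 were called higher and 2, Jam3 (-1.88) and Marveld1, lower, against 2.83% and 1.8% of all probes. Within row 2 Jam3 differed by 0.23 and 0 were called in limma, with 2 lower at an unadjusted p below 0.05 (5.39% of all probes). The row interaction was called for 3 of the 39 as larger in row 1 and for 1 in the other direction. Of all 27590 probes, 96 and 145 were.

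Of 18 transcription factors that are reported to act on claudin or occludin genes, 15 were tested. Over all arrays 1 of them, Grhl3, was called higher in limma, against 1.52% of all probes. At an unadjusted p below 0.05, 3 were higher and 3 lower, against 7.75% and 14% of all probes. Grhl3, a Grainyhead-like activator of epithelial genes, had levels of -0.73, -0.95, -0.42 and -1.02 on GFP-positive arrays, against -1.93, -2.38, -1.71 and -2.22 on GFP-negative arrays. The groups were apart, and Grhl3 rose 2.43-fold (1.28 ± 0.18, adjusted p = 0.0151), by 1.73 within slide row 1 and 0.83 within row 2. Its call was lost without GFP-positive replicate 1 (adjusted p = 0.0671) and without GFP-negative replicate 4 (0.0581), with no filter on dim probes (0.0720) and within row 2 (0.389). Grhl1 differed by 0.74 ± 0.22 (adjusted p = 0.113). The repressor Twist1 differed by -0.55 ± 0.20 (adjusted p = 0.165). Snai1, a factor of the E-box letters shown above, differed by -0.53 ± 0.22 (adjusted p = 0.219), at -1.11 within row 1 and 0.057 within row 2. Of the other factors of these letters, Snai2 differed by 0.081 ± 0.19, Zeb1 by -0.85 ± 0.46 and Zeb2 by -0.93 ± 0.40. Their adjusted p values in limma were 0.838, 0.317 and 0.228. In the same order they differed by -0.37, -2.02 and -1.83 within row 1 and by 0.53, 0.31 and -0.026 within row 2. In slide row 1, 4 of the 15 were called higher and 4 lower, against 2.83% and 1.8% of all probes. Of these, Grhl2 and Elf3 (higher) were also counted among the epithelial markers, and Zeb1 and Twist1 (lower) among the mesenchymal markers. In row 2 0 were called in limma, with 3 higher and 1 lower at an unadjusted p below 0.05, against 5.44% and 5.39% of all probes.

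**Figure D4:**
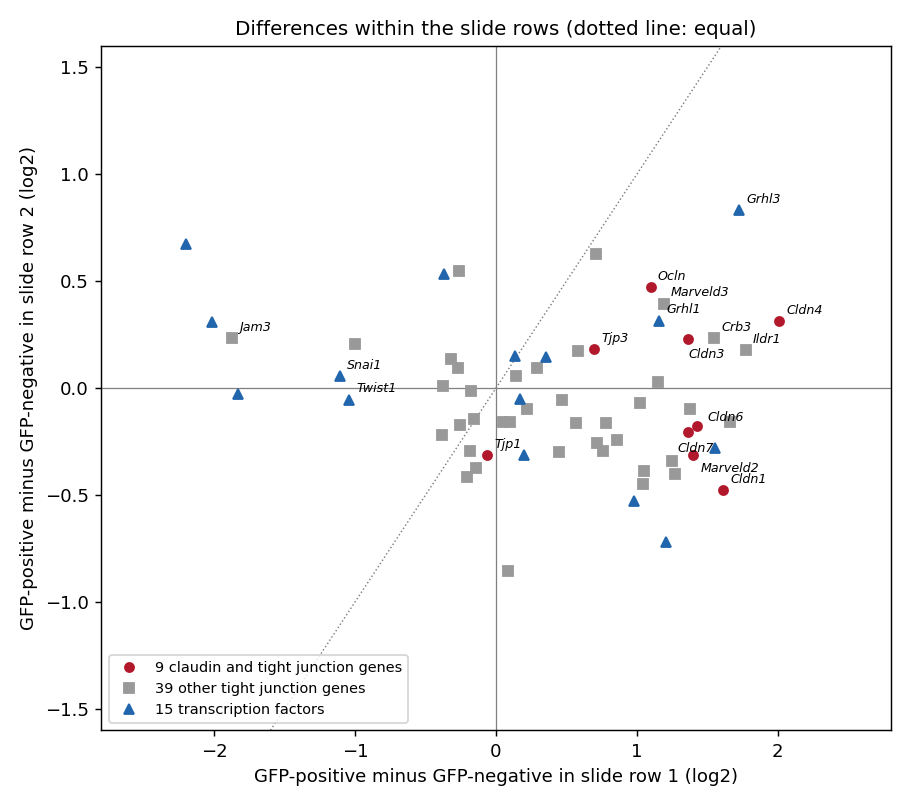
GFP-positive minus GFP-negative difference (log2) within slide row 1 (x axis) and within slide row 2 (y axis, drawn at another scale) for the 9 claudin and tight junction genes (circles), 39 other tight junction genes (squares) and 15 transcription factors (triangles), with equal differences on the dotted line. The circles of the 5 claudins, Ocln and Marveld2 lie at 1.10 to 2.01 on the row 1 axis and between -0.48 and 0.47 on the row 2 axis.

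The genes whose pattern over the 8 arrays lay closest to the mean of the 9 members were Tcte1, Stxbp2, Wnt7b, Lpin3, Ptpn13, Spint1, Rac3 and Syt8, in that order. Likeness was the root mean square distance between levels centred on their own mean, over 19764 genes, and is a description. The distance was 0.07 for Tcte1 and 0.11 for Syt8, against 0.44 for a gene that does not vary and a median of 0.50. Stxbp2, a Munc18 protein of vesicle fusion, had levels of 3.64, 3.29, 3.62 and 3.12 on GFP-positive arrays, against 3.15, 2.50, 3.07 and 2.54 on GFP-negative arrays. Spint1, an inhibitor of epithelial membrane serine proteases, had levels of 1.97, 1.58, 2.20 and 1.35 on GFP-positive arrays, against 1.47, 0.80, 1.49 and 0.70 on GFP-negative arrays. None of the 8 was called, with adjusted p values from 0.129 to 0.284 in limma. Among the members themselves the distance was smallest for Marveld2 (0.14), Cldn3 (0.15), Cldn6 (0.17) and Cldn7 (0.18), larger for Ocln (0.30), Cldn4 (0.40) and Tjp3 (0.41), and largest for Tjp1 (0.47) and Cldn1 (0.51). Each member is part of the mean it is set against.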

How the data were processed

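RNA of sorted MAM326 cells was labelled with Cy3 from 20 ng of total RNA and measured on 8 arrays, per the labels. The deposited intensities came from Agilent Feature Extraction 10.7.3.1, per the file headers, and the processed signal was already background-subtracted and detrended within each array. Between-array scaling was not part of it.

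Of 59305 non-control spots per array, 106 to 186 marked as outliers were left out. The log2 processed signal was set relative to each array's 75th percentile, and spots of 1 probe were averaged. No spot was saturated. Those probes that stood well above background on 4 or more arrays were tested with limma 3.58.1 in R 4.3.3 (two-sided moderated test, no block, Benjamini-Hochberg over 27590 probes, threshold 0.05). Errors beside differences are standard errors. A gene was represented by its brightest tested probe, and 27509 of 55681 probes (49.4%) were named through RefSeq accessions of GRCm38.p6. Probe positions are those of mm9, per the file headers, and exon or untranslated position was not analysed here. Other lists were described by counts and by the rule of the 4 largest differences where none passed, or for transcription factors the 4 lowest p-values. The further claudins tested and the other factors of the E-box letters are given besides. Members and lists were chosen with earlier results of these data known. The number of arrays limits the precision.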

Additional observations from a re-analysis of the deposited data

How the results depend on the processing

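Over all arrays, 0 member probes were called in limma under every alternative except slide row 1 alone (6 probes), with 3 to 8 at an unadjusted p below 0.05 (8.9% to 27.9% of all probes) apart from slide row 2 (0). The median difference of the 9 genes was 1.36 within row 1 and -0.18 within row 2, and 0.40 to 0.78 without single arrays. Signs turned within row 2 for Cldn1 (-0.48), Cldn6 (-0.18), Cldn7 (-0.21), Marveld2 (-0.32), Jam3 (0.23) and Snai1 (0.057), and under no other alternative. The cause was not tested, and within a row GFP group and replicate set cannot be told apart.

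Of all probes 552 were called, 76.1% of them higher. The count was 896 with normexp (56.9% higher), 241 with median centring (89.6%), 160 with no filter on dim probes, 335 with slide row as a block, 1852 with array weights, 1348 with an intensity trend and robust prior, 1277 within row 1 and 0 within row 2. Median centring moved the median of all probes to -0.18, from -0.06. Without single arrays the count ran from 181 to 439, at 181, 250 and 306 without GFP-positive replicates 1, 3 and 4 and 274, 263 and 251 without GFP-negative replicates 2, 3 and 4. With replicate number, which is also slide column, as a block, it was 220 and 0 member probes were called in limma, 7 at an unadjusted p below 0.05, all higher (7.83% of all probes). Same-numbered arrays did not deviate together (correlations from -0.018 to 0.16, and 0 of 4 best with their own number), so the numbers were not used to pair arrays. The best matches were GFP-positive 1 with GFP-negative 3 (0.40), 2 with 4 (0.30), 3 with 1 (0.57) and 4 with 2 (0.62), all within the sets 1 and 3 or 2 and 4 and all across slide rows.

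Of the other tight junction genes, 11 were called within row 1, where 1277 of all 27590 probes were. With probes above background on all arrays 1 was called, against 770 of 23478 probes. It was 1 with array weights and 2 with a trend and robust prior, against 1852 and 1348 of 27590. Without single arrays it was 0 to 1, against 181 to 439. For the row interaction, 2 member probes and 241 of all probes were called in the main fit. These counts became 6 and 1014 with normexp, 1 and 162 with quantile normalization, and 0 and 247 with median centring. They were 0 and 0 with no filter, and 5 and 916 with a trend and robust prior. Leaving out 1 array leaves a row with 1 array of a group, so calls are not counted for those fits.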

Other observations

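Pard6g, a PAR6 polarity protein that works beside the tight junction, was looked up after its values were seen. Its level averaged 2.97 ± 0.21 on the GFP-positive arrays and 2.30 ± 0.21 on the GFP-negative arrays (SD, n = 4 each). The difference was 0.67 ± 0.14 (adjusted p = 0.0576 in limma), at 0.71 within slide row 1 and 0.63 within row 2. It passed the threshold with probes above background on all arrays, with array weights, with an intensity trend and robust prior, and without GFP-positive replicate 2. Prkci, the atypical protein kinase C of the same complex, was lower by -0.30 ± 0.08 (adjusted p = 0.0944), at -0.38 and -0.22 within the rows, and also passed with a trend and robust prior. The difference between the rows was 0.08 for Pard6g (adjusted p = 0.900 for the interaction), against 1.71 for Marveld2.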
